A study of Homo sapiens with 15 samples.

Results

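The genes described here are those of the extracellular matrix and its receptors: 43 collagen chains, 10 laminin chains, 26 integrin genes, and the matrix proteins SPARC and fibronectin (FN1). Apart from SPARC and FN1, added by name, they were every gene with a symbol built as a collagen, laminin or integrin chain. Only features that carry 1 symbol were used. This gave 81 genes of 18377. No cutoff on a measured value was applied, but the members were chosen with earlier results of these data known. By structure they were 11 fibrillar, 6 type IV, 5 type VI, 10 FACIT and 11 other collagens, 4 laminin α, 4 β and 2 γ chains, and 17 integrin α and 9 integrin β genes. The β genes include ITGBL1, an integrin β-like protein that is not a receptor subunit. All but COL11A2, with 3 features, were measured by a single feature.

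The levels were measured on 15 whole-transcript arrays (Affymetrix Human Gene 1.0 ST) in 2 human prostate cancer cell lines, PC3, from a bone metastasis, and DU145, from a brain metastasis. Cells were left untransfected or were transfected for 48 h with a synthetic mimic of miR-224, a mimic of miR-452 or a scrambled mimic, each at 20 nM. Each line and treatment had 2 arrays, except the DU145 scrambled group with 1, since the submitters left out a second array for poor performance. Transfection used Lipofectamine, and the labels do not say whether untransfected cells were exposed to it. The labels do not say whether the 2 arrays of a group came from separate cultures, so each p-value reflects array-to-array spread alone, and that spread may be technical.

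Collagens form fibrils and networks of the matrix, laminins build the basement membrane, and fibronectin links cells to both. Integrins are the main receptors for these proteins, each a pair of 1 α and 1 β subunit: β1 pairs with α2 as a collagen receptor, with α3 and α6 as laminin receptors and with α5 as the classical fibronectin receptor. SPARC is a secreted matricellular protein that binds collagen and has been studied in prostate cancer metastasis to bone. MicroRNAs lower messages that carry a match to their seed, bases 2 to 8 of the mature strand, so a gene can fall by direct targeting or move in either direction further downstream, and array levels do not tell these apart.

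The mature sequences of the 2 microRNAs are shown because their mimics are compared below, with transfection itself also differing in comparisons with untransfected cells. They are RefSeq's on GRCh38.p14, on the minus strand of the X chromosome, where both lie within the GABRE gene, with the seed in capitals. The labels name no arm, so both arms of each are given.
hsa-miR-224-5p, chrX:151958628-151958652: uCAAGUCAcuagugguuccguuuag
hsa-miR-224-3p, chrX:151958584-151958606: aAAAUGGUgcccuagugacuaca
hsa-miR-452-5p, chrX:151959678-151959699: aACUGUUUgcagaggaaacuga
hsa-miR-452-3p, chrX:151959634-151959655: cUCAUCUGcaaagaaguaagug
The 4 seeds differ from each other.

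Values were log2 levels, as deposited. Replicate arrays differed over the 81 genes by a median of 0.049 (DU145 untransfected) to 0.215 (DU145 miR-452) log2 units. Keratins 8, 18 and 19, which mark epithelial cells, lay at or above percentile 97 of all genes in both lines, while of the other epithelial markers CDH1 lay at percentile 39.8 in PC3 and 84.9 in DU145. Of the listed markers of other cell types, 0 of 5 leukocyte and 0 of 4 smooth muscle genes had a signal above the median gene in either line. The prostate luminal genes KLK2 and KLK3 lay below it in both. COL1A1 lay above it among 8 fibroblast genes in both lines, and KDR among 5 endothelial genes in PC3. Transfected arrays held a narrower spread of values: over all features the SD was 1.784 to 1.811 on untransfected PC3 arrays and 1.710 to 1.760 on the other PC3 arrays, and 1.647 to 1.650 against 1.517 to 1.585 in DU145. Since these are bulk samples, fewer cells expressing a gene and less RNA per cell cannot be told apart.

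In untransfected cells fibronectin and type VI collagen had different levels in the 2 lines. FN1 had a mean log2 level of 11.26 in PC3 and 6.81 in DU145. COL6A3, a type VI chain, had 9.65 and 5.61, and COL6A1 had 11.37 and 8.30. SPARC had 7.64 in PC3 and 5.61 in DU145. LAMA1, a laminin α chain, went the other way, with 6.19 in PC3 and 7.78 in DU145, as did integrin β3 (ITGB3) with 6.49 and 7.60. The lines were normalized separately, so these pairs of values are a description without a test, and the tests below are of changes within a line and of how those changes differ between lines. Of the 43 collagens, 30 in PC3 and 32 in DU145 had mean levels below the median gene of the line (7.459 and 6.931), and 4 and 0 lay above a log2 level of 9. Of the 26 integrin genes, 9 in PC3 and 4 in DU145 lay above 9.

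**Figure D1:**
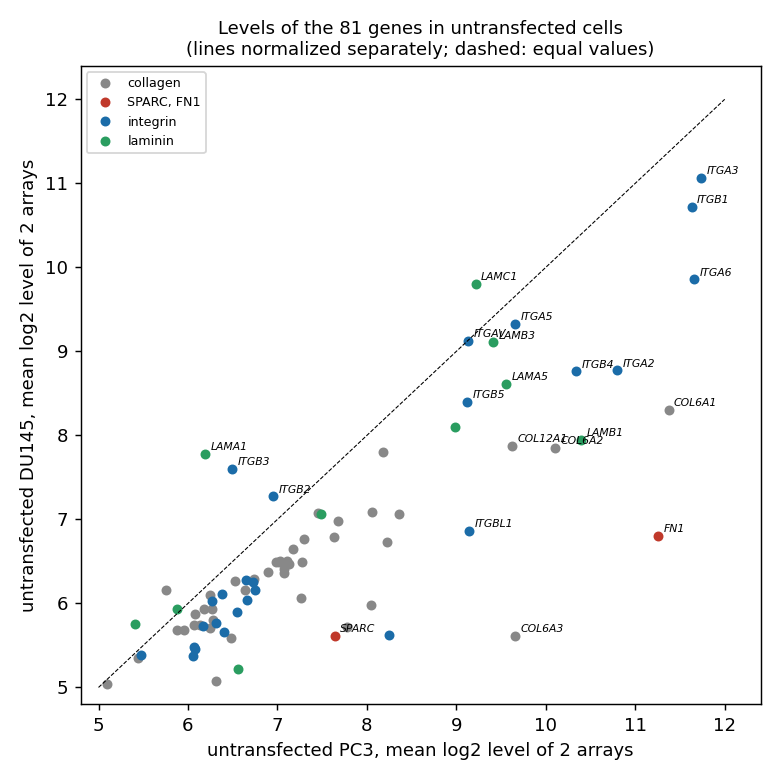
Mean log2 level of each of the 81 genes in untransfected PC3 (horizontal axis) and untransfected DU145 cells (vertical axis), 2 arrays each, coloured by family, with a dashed line at equal values. FN1 (11.26 and 6.81) and COL6A3 (9.65 and 5.61) lie far to the PC3 side, and LAMA1 (6.19 and 7.78) and ITGB3 (6.49 and 7.60) on the DU145 side; the lines were normalized separately.

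In PC3 cells the miR-224 mimic gave higher SPARC and integrin α5, α2 and β1 and lower integrin α3, against either control. Against scrambled 13 of 81 genes passed (limma, Benjamini-Hochberg adjusted p under 0.05 over all 18377 genes), 11 higher and 2 lower, where 16.8% of all genes passed (12.1% higher, 4.65% lower). Integrins held 8 of the 13, and collagens held 1 of 43. Against untransfected cells 8 passed, 6 higher and 2 lower, with 9.69% of all genes passing (2.84% higher, 6.85% lower). Taken without direction, both shares among the 81 genes, 16.0% and 9.88%, were near those of all genes, so neither total stands apart from the background. Against untransfected cells rises outnumbered falls among the 81 genes, while falls outnumbered rises among all genes. That split was not tested. The 2 comparisons share the miR-224 arrays. Without miR-224 array b, 4 genes passed against scrambled and 5 against untransfected cells, and without untransfected array c, 5 passed against untransfected cells. SPARC, ITGA5, ITGA2 and ITGA3 passed against each control whichever array was left out.

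The miR-452 mimic in PC3 gave higher laminin β3 and integrin α5 and lower COL6A1 and laminin γ1. Against scrambled 5 genes passed, 3 higher and 2 lower, with 5.22% of all genes passing (2.89% higher, 2.33% lower). Against untransfected cells 22 passed, 14 higher and 8 lower, with 22.2% of all genes passing (8.12% higher, 14.1% lower). After quantile normalization of the arrays 16 passed, 12 higher and 4 lower. The first count fell to 3 without either untransfected array, scrambled array b or miR-452 array b, and to 2 without miR-452 array c. The second fell to 4 without untransfected array b, to 7 without miR-452 array b and to 8 without miR-452 array c.

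In DU145 cells integrin α3 was lower with miR-224 against either control, and integrin α5 was higher against untransfected cells. With miR-224, ITGA3 alone of the 81 genes passed against scrambled, with 1.94% of all genes passing (0.631% higher, 1.31% lower). With miR-452 none did by limma, with 2.10% of all genes passing (0.577% higher, 1.52% lower). At an unadjusted p under 0.05 there were 2 higher and 1 lower, and limma with trend and robust moderation called 1. The single scrambled array is assumed in these fits to vary like the other groups. The first count was 0 when any of the untransfected or miR-224 arrays was left out, and 4 when a miR-452 array was. It was 2, 1 higher and 1 lower, after quantile normalization. The second was 1 without either miR-452 array.

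Against untransfected DU145 cells 18 genes passed with miR-224, 11 higher and 7 lower, and 27 with miR-452, 19 higher and 8 lower. Of all genes, 21.0% passed with miR-224 (5.44% higher, 15.5% lower) and 28.2% with miR-452 (8.31% higher, 19.9% lower). Collagens made up 10 of the 11 rises with miR-224 and 16 of the 19 with miR-452. The largest falls with miR-224 were of ITGA3, LAMB1 and LAMA1, and with miR-452 of LAMC1, LAMB1 and ITGB4. The miR-224 count was 2 without either untransfected array, 8 without miR-224 array a, 4 without array c, and 37 when a miR-452 array was left out. The miR-452 count was 4 and 2 without untransfected array b and c, 11 without miR-452 array a and 55 without its array c, and it was 14, 9 higher and 5 lower, after quantile normalization.

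**Figure D2:**
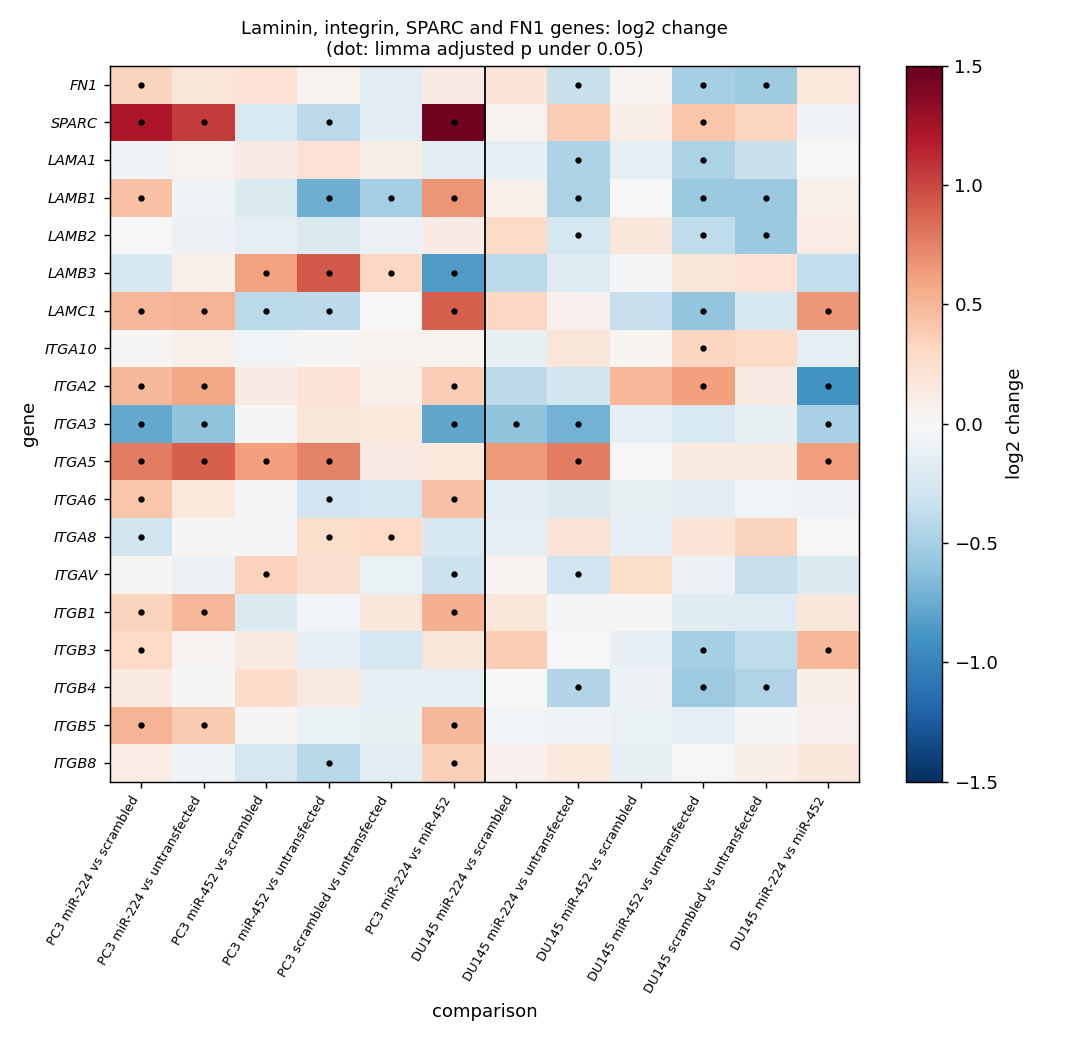
Log2 change (colour scale, blue for lower and red for higher) of the 19 genes other than collagens that passed in at least 1 of the 12 comparisons, with PC3 left and DU145 right of the black line; a dot marks a limma adjusted p under 0.05. SPARC is at 1.21 with miR-224 against scrambled in PC3 and at 0.05 in DU145, while ITGA3 is lower with miR-224 in both lines (-0.76 and -0.60).

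Among the secreted matrix proteins, SPARC (Entrez gene 6678, chromosome 5) showed the largest log2 change of the 81 genes over the 12 comparisons within a line. In PC3 its log2 levels were 7.73 and 7.55 untransfected, 7.55 and 7.40 scrambled, 8.80 and 8.58 with miR-224, and 7.19 and 7.30 with miR-452. The miR-224 arrays lay above every other PC3 array and the miR-452 arrays below. The change with miR-224 was 1.21 ± 0.10 (SE; 2.32-fold, adjusted p = 5.03e-05 by limma) against scrambled and 1.05 ± 0.10 (2.07-fold, adjusted p = 0.000167) against untransfected cells. With miR-452 SPARC was lower than in untransfected cells by 0.40 on the log2 scale (adjusted p = 0.0201), and against scrambled the change was -0.23 (adjusted p = 0.263). In DU145 it had 5.49 and 5.73 untransfected, 5.93 scrambled, 5.98 and 5.98 with miR-224, and 6.23 and 5.83 with miR-452. The scrambled array lay between the 2 miR-452 arrays and just below the miR-224 arrays, and the change with miR-224 against scrambled was 0.05 ± 0.16 (adjusted p = 0.981). Against untransfected DU145 cells it was 0.37 with miR-224 (adjusted p = 0.0759) and 0.42 with miR-452 (adjusted p = 0.0450). This miR-452 call was lost after quantile normalization and when any 1 of 5 of the 7 DU145 arrays was left out.

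The difference in SPARC between the lines was tested itself, in a fit of all 15 arrays. The change with miR-224 against scrambled was larger in PC3 by 1.16 ± 0.20 (adjusted p = 0.0151), and against untransfected cells by 0.68 ± 0.18 (adjusted p = 0.0438). With miR-452 against untransfected cells the PC3 change was lower by 0.81 on the log2 scale (SE 0.18, adjusted p = 0.0247). By mean level SPARC lay at percentile 22.4 of all genes in DU145 and 56.3 in PC3. The part of this in the differences was not tested.

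Fibronectin (FN1, Entrez gene 2335, chromosome 2), the ligand of integrin α5β1, had PC3 levels of 11.27 and 11.24 untransfected, 11.17 and 11.02 scrambled, 11.39 and 11.47 with miR-224, and 11.38 and 11.24 with miR-452. The scrambled arrays were the lowest, and the rise with miR-224 passed against scrambled (0.34 ± 0.09, adjusted p = 0.0207) but not against untransfected cells (0.18 ± 0.09, adjusted p = 0.248). The first call was lost without scrambled array c or either miR-224 array. In DU145 the levels were 6.79 and 6.82 untransfected, 6.28 scrambled, 6.44 and 6.52 with miR-224, and 6.33 and 6.29 with miR-452. All 5 transfected arrays were below both untransfected arrays, with falls of 0.53 for scrambled (adjusted p = 0.0200), 0.33 for miR-224 (adjusted p = 0.0239) and 0.49 for miR-452 (adjusted p = 0.00514). Each of these falls lost its call without either untransfected array, and the miR-224 fall also without either miR-224 array. Against scrambled the DU145 changes were 0.20 with miR-224 and 0.04 with miR-452, neither passing. Against untransfected cells the PC3 change minus the DU145 change was 0.51 ± 0.12 with miR-224 (limma adjusted p = 0.0252). With miR-452 it was 0.55 ± 0.12 (adjusted p = 0.0193). In PC3 FN1 changed by 0.18 and 0.05 in these comparisons, neither passing, so the DU145 falls were the larger movements.

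**Figure D3:**
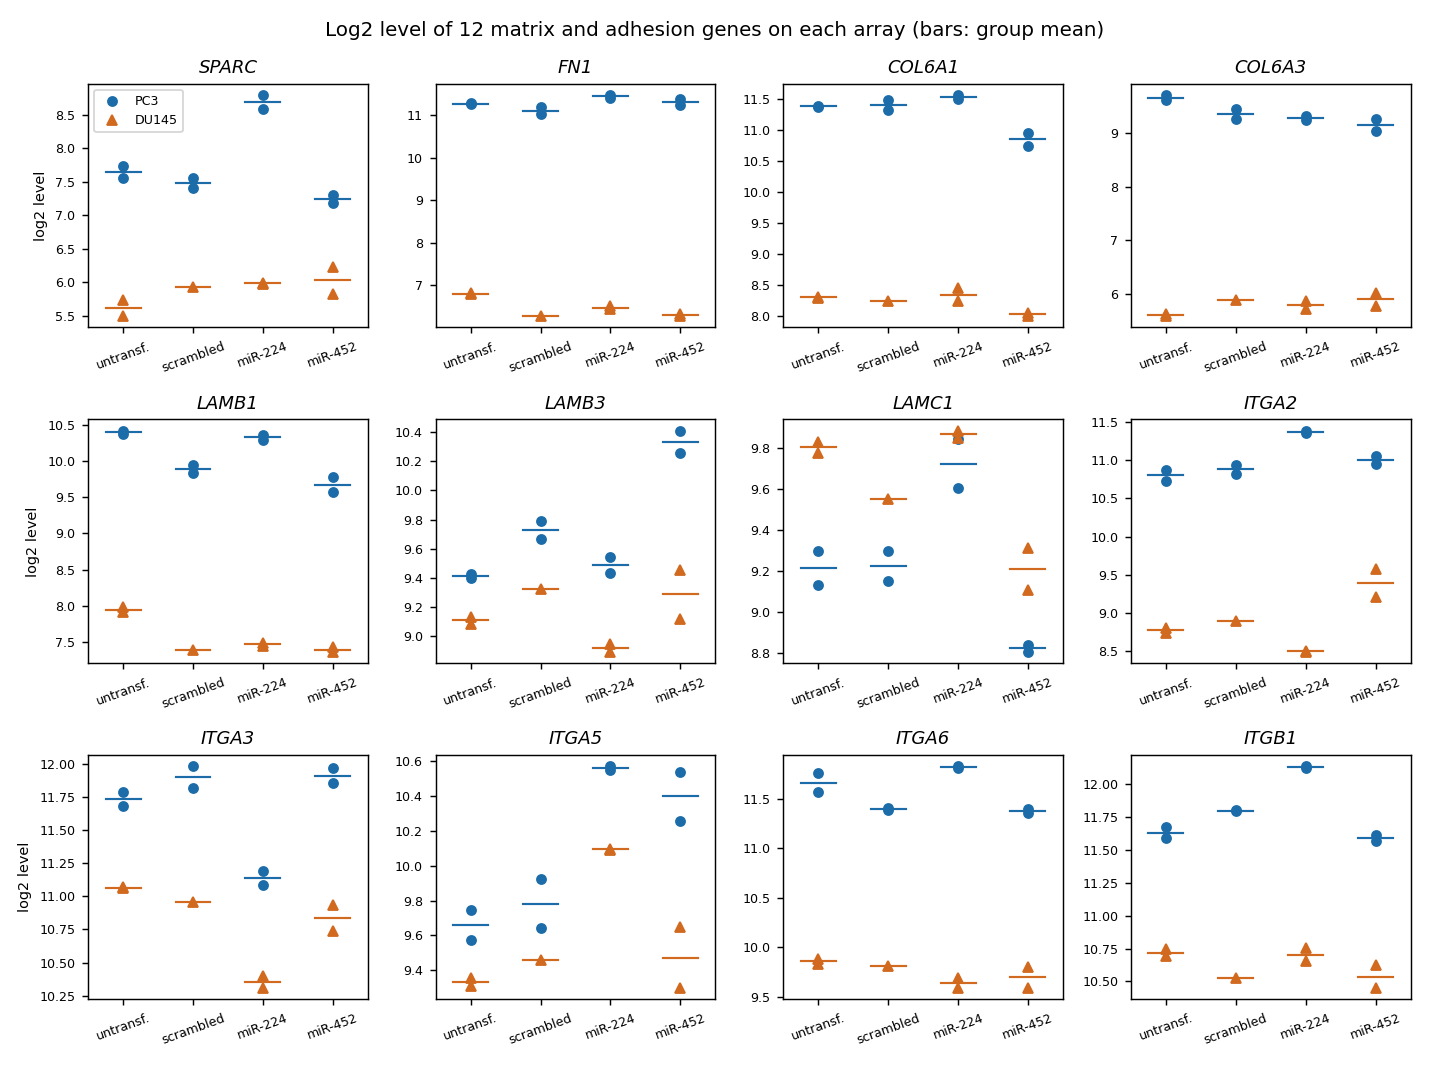
Log2 level on each array (points: PC3 circles, DU145 triangles) and group mean (bars) for 12 genes under the 4 treatments, with a separate vertical scale per gene. In PC3 the miR-224 arrays of SPARC (8.80 and 8.58) lie above the other 6 arrays, ITGA3 with miR-224 is the lowest group in both lines, and LAMC1 with miR-452 is the lowest group in both lines.

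Among the laminins, the γ1 chain (LAMC1), which most laminin trimers contain, differed between the mimics in both lines. In PC3 it had 9.30 and 9.13 untransfected, 9.30 and 9.15 scrambled, 9.60 and 9.84 with miR-224, and 8.81 and 8.84 with miR-452. Every miR-224 array was above and every miR-452 array below the 4 control arrays. With miR-224 it rose by 0.50 ± 0.10 against scrambled (adjusted p = 0.00596) and 0.51 ± 0.10 against untransfected cells (adjusted p = 0.00905), and with miR-452 it fell by 0.40 (adjusted p = 0.0409) and 0.39 (adjusted p = 0.0194). The difference between the mimics, 0.90 ± 0.10 (adjusted p = 0.000133), passed whichever array was left out, while the miR-224 rise against scrambled was lost without miR-224 array b and the miR-452 fall without 5 of the 8 arrays. In DU145 it had 9.83 and 9.77 untransfected, 9.55 scrambled, 9.88 and 9.85 with miR-224, and 9.11 and 9.31 with miR-452. The miR-452 arrays were again the lowest: the fall was 0.59 against untransfected cells (adjusted p = 0.00413) and the mimics differed by 0.66 ± 0.09 (adjusted p = 0.00475), and both calls held without any single array. Against the scrambled array the change with miR-452 was -0.34 ± 0.12 (adjusted p = 0.173).

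The laminin β3 chain (LAMB3), a part of laminin-332 in epithelial basement membranes, was raised by miR-452 in PC3. Its levels were 9.40 and 9.43 untransfected, 9.79 and 9.67 scrambled, 9.43 and 9.55 with miR-224, and 10.41 and 10.26 with miR-452. The miR-452 arrays lay above all others, by 0.60 ± 0.09 against scrambled (adjusted p = 0.00184) and 0.92 ± 0.09 against untransfected cells (1.89-fold, adjusted p = 0.000108), and both calls held without any single array. The scrambled mimic alone gave 0.31 ± 0.09 against untransfected cells (adjusted p = 0.0352). In DU145 the levels were 9.09 and 9.13 untransfected, 9.32 scrambled, 8.89 and 8.94 with miR-224, and 9.12 and 9.46 with miR-452. No DU145 change of LAMB3 passed, and the miR-452 change against untransfected cells was larger in PC3 by 0.74 ± 0.15 (adjusted p = 0.0122).

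The laminin β1 chain (LAMB1) depended on the control. In PC3 it had 10.42 and 10.37 untransfected, 9.94 and 9.83 scrambled, 10.30 and 10.36 with miR-224, and 9.78 and 9.57 with miR-452. The scrambled arrays were lower than the untransfected by 0.51 on the log2 scale (adjusted p = 0.00686), so miR-224 was higher than scrambled by 0.44 (adjusted p = 0.00627) and differed from untransfected cells by -0.07 (adjusted p = 0.689). With miR-452 LAMB1 fell by 0.73 against untransfected cells (adjusted p = 0.000459), and against scrambled the change was -0.22 (adjusted p = 0.223). In DU145 both untransfected arrays, at 7.91 and 7.98, lay above all 5 transfected arrays, at 7.36 to 7.49, with falls of 0.55 for scrambled, 0.48 for miR-224 and 0.55 for miR-452 (adjusted p = 0.0189, 0.00614 and 0.00353). The calls for scrambled and miR-224 were lost without either untransfected array. Against scrambled the DU145 changes were 0.07 with miR-224 and -5e-04 with miR-452, and neither passed.

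LAMB2 and LAMA1, like LAMB1, were lower on transfected than on untransfected DU145 arrays. LAMB2 fell by 0.55, 0.27 and 0.38 with scrambled, miR-224 and miR-452 against untransfected cells (adjusted p = 0.0189, 0.0490 and 0.0126). All 3 LAMB2 calls were lost after quantile normalization and without either untransfected array, and the miR-224 call also without either miR-224 array. LAMA1 had 7.82 and 7.75 untransfected, 7.45 scrambled, 7.32 and 7.32 with miR-224, and 7.30 and 7.32 with miR-452. It fell by 0.47 with each of miR-224 (adjusted p = 0.00606) and miR-452 (adjusted p = 0.00580), and both calls were lost without either untransfected array. In PC3 LAMA1 changed by 0.05 and 0.22 in the same comparisons, neither passing, and the changes differed between the lines by 0.52 ± 0.11 (adjusted p = 0.0194) and 0.69 ± 0.11 (adjusted p = 0.00398). By mean level LAMA1 lay at percentile 24.2 of all genes in PC3 and 62.5 in DU145. The part of this in the differences was not tested.

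Type VI collagen, a microfibril of the cell border made mainly of α1, α2 and α3 chains, had lower α1 and α3 chains with miR-452 than in untransfected PC3 cells. COL6A1 (Entrez gene 1291, chromosome 21) had PC3 levels of 11.36 and 11.39 untransfected, 11.48 and 11.31 scrambled, 11.49 and 11.56 with miR-224, and 10.94 and 10.74 with miR-452. The miR-452 arrays were the lowest, with a change of -0.55 ± 0.09 against scrambled (adjusted p = 0.00458) and of -0.53 against untransfected cells (adjusted p = 0.00306); the first call was lost without miR-452 array c. In DU145 the miR-452 arrays, at 8.06 and 7.997, were also below the untransfected, at 8.31 and 8.30, with a change of -0.28 ± 0.10 (adjusted p = 0.0555). COL6A3 had 9.71 and 9.60 in untransfected PC3 cells and 9.04 to 9.44 in the 6 transfected arrays. It fell by 0.38 with miR-224 (adjusted p = 0.0306) and 0.51 with miR-452 (adjusted p = 0.00521) against untransfected cells, the scrambled change was -0.31 (adjusted p = 0.0552), and against scrambled no mimic changed it past the threshold. COL6A2 changed by at most 0.11 in the same PC3 comparisons, none passing. COL6A3 differed between the lines, with PC3 changes lower by 0.58 for miR-224 (between-line difference -0.58 ± 0.15, adjusted p = 0.0401) and by 0.80 for miR-452 (-0.80 ± 0.15, adjusted p = 0.00950) against untransfected cells. By mean level COL6A3 lay at percentile 20.1 of all genes in DU145 and 84.4 in PC3. The part of this in the differences was not tested.

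Few other collagens passed against the scrambled control. The only one with miR-224 in PC3 was COL8A1, a short-chain network collagen, with 6.37 and 6.51 against 5.95 and 6.20 (change 0.36 ± 0.09, adjusted p = 0.0213). Its call was lost without scrambled array b or miR-224 array b, and the untransfected arrays, at 6.32 and 6.31, lay close to the miR-224 arrays. In DU145, 0 of 43 collagens passed against scrambled with either mimic by limma, and 0 reached an unadjusted p under 0.05, nor did any pass after quantile normalization or with trend and robust moderation. Collagen changes there ran from -0.19 to 0.17 with miR-224 and from -0.21 to 0.16 with miR-452.

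Against untransfected cells most collagens were higher after every transfection, the scrambled mimic included. The changes were above 0 in 36 of 43 collagens with scrambled, 39 with miR-224 and 34 with miR-452 in PC3, and in 41, 42 and 41 in DU145. Median collagen changes were 0.19, 0.13 and 0.21 in PC3 and 0.32, 0.27 and 0.29 in DU145, while the median of all genes lay between -0.02 and 0.03. Of all genes below the line's median gene, 71.1% to 74.6% in PC3 and 74.5% to 75.5% in DU145 were above 0 in the same comparisons. The 3 comparisons of a line share the untransfected arrays. Those that passed numbered 6, 0 and 11 higher in PC3 and 4, 10 and 16 higher in DU145, where the shares of all genes higher were 3.32%, 2.84% and 8.12% in PC3 and 2.60%, 5.44% and 8.31% in DU145.

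**Figure D4:**
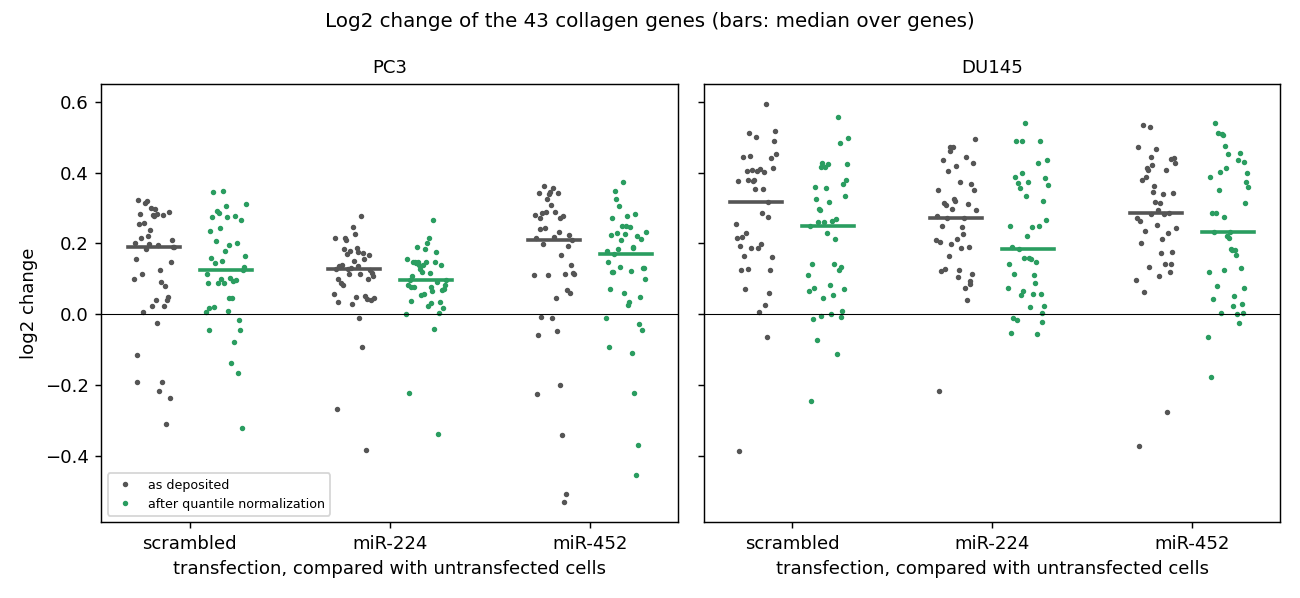
Log2 change of each of the 43 collagens against untransfected cells after the scrambled, miR-224 and miR-452 mimics, from the values as deposited (grey) and after quantile normalization of the arrays (green), with bars at the median over genes. As deposited the medians lie at 0.19, 0.13 and 0.21 in PC3 and 0.32, 0.27 and 0.29 in DU145, and after quantile normalization each median also lies above 0.

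The collagen rises were small. In DU145 COL5A3, a fibrillar chain, had 6.64 and 6.64 untransfected, 7.24 scrambled, 7.003 and 7.18 with miR-224, and 7.26 and 6.85 with miR-452, and rose by 0.60 with scrambled (adjusted p = 0.0427). COL9A2, a FACIT chain that decorates fibrils, had 6.43 and 6.40 untransfected and 6.68 to 7.002 on the 5 transfected arrays, with rises of 0.52, 0.49 and 0.43. COL2A1, the cartilage fibril collagen, rose by 0.50, 0.42 and 0.47 and COL9A1 by 0.49, 0.35 and 0.44 with scrambled, miR-224 and miR-452, and all 6 passed. The other named rises with miR-224 were COL23A1 (0.47), COL22A1 (0.46), COL8A2 (0.43), COL4A3 (0.37) and COL27A1 (0.33). With miR-452 they were COL16A1 (0.53), COL22A1 (0.53), COL11A2 (0.47), COL23A1 (0.44), COL7A1 (0.44) and COL25A1 (0.42), and COL12A1 fell by 0.37 (adjusted p = 0.0221). Each of these DU145 collagen calls was lost without either untransfected array. After quantile normalization the scrambled calls were lost, as were COL5A3, COL22A1, COL23A1 and COL4A3 with miR-224. With miR-452 only COL2A1, COL9A1 and COL9A2 of those named kept their calls after it. In PC3 with miR-452 the named rises were COL1A2 (0.36), COL28A1 (0.36), COL25A1 (0.34), COL4A3 (0.34), COL24A1 (0.34), COL22A1 (0.33), COL26A1 (0.31) and COL3A1 (0.29), and COL5A2 fell by 0.34 (adjusted p = 0.0179). Each of these PC3 collagen calls was lost without untransfected array b. The calls of COL28A1, COL25A1, COL24A1 and COL5A2 were also lost after quantile normalization.

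The width of the arrays' distributions moved with these rises. Over the genes whose mean level lay below the line's median gene, the mean per array was 6.215 to 6.245 on untransfected PC3 arrays and 6.262 to 6.321 on transfected ones, and 5.884 to 5.892 and 5.931 to 6.040 in DU145. Among collagens below the median gene, the median change was 0.21, 0.14 and 0.24 in PC3 and 0.32, 0.25 and 0.29 in DU145, against 0.09, 0.05 and 0.10 and 0.13, 0.12 and 0.13 for all genes below the median gene. Of these collagens 29, 30 and 30 of 30 were above 0 in PC3 and all 32 in each DU145 comparison. For the collagens at or above the median gene the medians were 0.005, 0.045 and -0.049 in PC3 (13 collagens; all such genes -0.124, -0.033 and -0.12) and 0.316, 0.311 and 0.243 in DU145 (11 collagens; all such genes -0.142, -0.136 and -0.191). In this class 7, 9 and 4 of 13 were above 0 in PC3, where 26.9%, 44.1% and 28.7% of such genes were, and 9, 10 and 9 of 11 in DU145, where 31.8%, 29.4% and 20.6% were. After quantile normalization the number of collagens above 0 was 36, 39 and 35 in PC3 and 36, 38 and 40 in DU145, and the number higher and passing was 6, 0 and 8 in PC3 and 0, 7 and 6 in DU145. For the scrambled mimic, quantile normalization gave 10 genes of the 81 in PC3 (7 higher, 3 lower) in place of 9 (8 higher, 1 lower, with 14.2% of all genes passing, 3.32% higher and 10.9% lower), and 2 in DU145 (0 higher, 2 lower) in place of 8 (4 higher, 4 lower, with 11.8% of all genes passing, 2.60% higher and 9.22% lower). The PC3 count dropped to 0 when untransfected array b or scrambled array c was left out and to 5 when a miR-224 array was. In DU145 it was 0 when an untransfected array was left out, 5 when a miR-224 array was and 32 when a miR-452 array was.

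Among the receptors, integrin α3 (ITGA3, Entrez gene 3675, chromosome 17), which with β1 binds laminins, was lower with miR-224 in both lines. In PC3 it had 11.69 and 11.79 untransfected, 11.98 and 11.82 scrambled, 11.19 and 11.08 with miR-224, and 11.97 and 11.86 with miR-452. It fell by 0.76 against scrambled (SE 0.09, 1.70-fold, adjusted p = 0.000342) and by 0.60 against untransfected cells (adjusted p = 0.00192). In DU145 it had 11.07 and 11.06 untransfected, 10.96 scrambled, 10.31 and 10.40 with miR-224, and 10.74 and 10.94 with miR-452. In each line the miR-224 arrays were below all others, and the DU145 falls were 0.60 against scrambled (SE 0.12, adjusted p = 0.0332) and 0.71 against untransfected cells (adjusted p = 0.00208). The call against the DU145 scrambled array was lost without either untransfected or either miR-224 array. With miR-452 ITGA3 changed by 0.01 and -0.12 against scrambled, neither passing.

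Integrin α5 (ITGA5, Entrez gene 3678, chromosome 12), the fibronectin receptor subunit, was higher with miR-224 than in untransfected cells in both lines. In PC3 it had 9.58 and 9.75 untransfected, 9.92 and 9.64 scrambled, 10.55 and 10.57 with miR-224, and 10.54 and 10.26 with miR-452. The 4 mimic arrays lay above the 4 control arrays. The change with miR-224 was 0.78 ± 0.12 against scrambled (1.72-fold, adjusted p = 0.00119) and 0.90 ± 0.12 against untransfected cells (adjusted p = 0.000805), and with miR-452 it was 0.62 ± 0.12 (adjusted p = 0.00989) and 0.74 ± 0.12 (adjusted p = 0.00190). The miR-452 call against scrambled was lost without scrambled array c or miR-452 array b. In DU145 it had 9.31 and 9.36 untransfected, 9.46 scrambled, 10.09 and 10.10 with miR-224, and 9.30 and 9.65 with miR-452. Only the miR-224 arrays stood apart, by 0.76 ± 0.11 against untransfected cells (adjusted p = 0.00329) and 0.63 ± 0.14 against scrambled (adjusted p = 0.0565). The difference between the lines in the miR-452 change against scrambled, 0.61, did not pass, as for all 81 genes in that test (limma, with 0.620% of all genes passing, and 3 of the 81 higher and 3 lower at an unadjusted p under 0.05; limma with trend and robust moderation also called 0). Without DU145 miR-452 array c that count was 1.

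Integrin α2 (ITGA2, Entrez gene 3673, chromosome 5), a collagen receptor subunit, rose with miR-224 in PC3 and did not in DU145. In PC3 it had 10.87 and 10.73 untransfected, 10.94 and 10.82 scrambled, 11.35 and 11.39 with miR-224, and 11.06 and 10.95 with miR-452. It rose with miR-224 by 0.49 ± 0.09 against scrambled (adjusted p = 0.00295) and 0.57 ± 0.09 against untransfected cells (adjusted p = 0.00214). In DU145 it had 8.80 and 8.75 untransfected, 8.90 scrambled, 8.51 and 8.49 with miR-224, and 9.20 and 9.58 with miR-452. The miR-224 arrays were the lowest there, with changes of -0.40 (adjusted p = 0.252) and -0.28 (adjusted p = 0.115), neither passing, and the miR-452 arrays the highest, by 0.62 ± 0.12 against untransfected cells (adjusted p = 0.00807). The miR-224 change was larger in PC3 by 0.89 ± 0.17 against scrambled (adjusted p = 0.0224) and by 0.84 ± 0.15 against untransfected cells (adjusted p = 0.00782). In DU145 the 2 mimics differed by -0.89 ± 0.12 (adjusted p = 0.00335), a call that held without any single array.

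ITGA6, a laminin receptor subunit, had 11.81 and 11.83 with miR-224 and 11.41 and 11.39 scrambled in PC3 (change 0.42, adjusted p = 0.00562), but untransfected arrays at 11.76 and 11.56 (change 0.16, adjusted p = 0.284). ITGA8 fell by 0.28 with miR-224 against scrambled in PC3 (adjusted p = 0.0328), a call lost after quantile normalization, and its change against untransfected cells was 0.02. ITGAV, the α subunit shared by vitronectin receptors, rose by 0.34 with miR-452 against scrambled in PC3 (adjusted p = 0.0470), a call lost without any 1 of the 8 arrays. In DU145 it fell by 0.29 with miR-224 against untransfected cells (adjusted p = 0.0459), a call lost after quantile normalization and without either untransfected or either miR-224 array.

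Of the β subunits, β1 (ITGB1), the partner of most α chains above, had PC3 levels of 11.67 and 11.59 untransfected, 11.80 and 11.80 scrambled, 12.12 and 12.14 with miR-224, and 11.62 and 11.57 with miR-452. The miR-224 arrays were the highest, by 0.33 ± 0.08 against scrambled (adjusted p = 0.0117) and 0.50 ± 0.08 against untransfected cells (adjusted p = 0.00208). The first call was lost without scrambled array c or either miR-224 array. In DU145 it had 10.74 and 10.69 untransfected, 10.52 scrambled, 10.75 and 10.65 with miR-224, and 10.45 and 10.62 with miR-452, with no change passing. The miR-224 change against untransfected cells was larger in PC3 by 0.52 ± 0.11 (adjusted p = 0.0211).

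ITGB5, which pairs with αV, rose in PC3 with miR-224 by 0.51 ± 0.10 against scrambled (adjusted p = 0.00406) and 0.39 ± 0.10 against untransfected cells (adjusted p = 0.0248). Its levels were 9.10 and 9.14 untransfected, 9.13 and 8.88 scrambled, and 9.44 and 9.59 with miR-224. Both ITGB5 calls were lost without miR-224 array b, and the call against untransfected cells also without either untransfected array. ITGB3, named after its values were seen, was the last of the 11 rises there, by 0.30 against scrambled (adjusted p = 0.0481). Its scrambled arrays were low, at 6.20 and 6.27 against 6.51 and 6.48 untransfected, and the miR-224 change against untransfected cells was 0.04 (adjusted p = 0.820). In DU145 ITGB3 had 7.55 and 7.66 untransfected and 6.97 and 7.23 with miR-452, a fall of 0.50 (adjusted p = 0.0106) that did not pass after quantile normalization or without either untransfected array. ITGB4, the partner of α6 in hemidesmosomes, had 8.70 and 8.82 in untransfected DU145 cells and 8.18 to 8.34 on the 5 transfected arrays. It fell by 0.45, 0.44 and 0.54 with scrambled, miR-224 and miR-452 (adjusted p = 0.0323, 0.00940 and 0.00450), and the first 2 of these calls were lost after quantile normalization and without either untransfected array, the miR-224 call also without either miR-224 array, and the miR-452 call without untransfected array c. In PC3 the miR-452 change of ITGB4 was 0.14 against untransfected cells, and the lines differed by 0.68 ± 0.13 (adjusted p = 0.00981). ITGB8 fell by 0.42 with miR-452 against untransfected PC3 cells (adjusted p = 0.0247), and so did ITGA6, by 0.29 (adjusted p = 0.0329). Both calls were lost after quantile normalization and without untransfected array b or either miR-452 array.

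Set directly against each other in PC3, the mimics differed in 12 of the 81 genes, 9 higher with miR-224 and 3 higher with miR-452, where 18.5% of all genes passed (12.5% higher, 5.99% lower with miR-224). Higher with miR-224 were SPARC (1.44 ± 0.10, 2.72-fold, adjusted p = 1.32e-05), LAMC1 (0.90), COL6A1 (0.69), LAMB1 (0.66), ITGB1 (0.54), ITGB5 (0.49), ITGA6 (0.44), ITGA2 (0.36) and ITGB8 (0.36). Lower with miR-224 were LAMB3 (-0.84), ITGA3 (-0.78) and ITGAV (-0.32). For 8 of the 12 the call held without any single array: SPARC, LAMC1, COL6A1, LAMB1, ITGB1, ITGA6, LAMB3 and ITGA3. In DU145 5 genes differed, with 5.91% of all genes passing (3.53% higher, 2.38% lower with miR-224). LAMC1 (0.66), ITGA5 (0.62) and ITGB3 (0.50) were higher with miR-224, and ITGA2 (-0.89) and ITGA3 (-0.48) were lower. Without either DU145 miR-224 array 2 genes passed, LAMC1 and ITGA2 in each case. LAMC1 and ITGA3 differed between the mimics in the same direction in both lines, and ITGA2 in opposite directions; the difference of these between the lines was not tested.

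Across the lines, 2 of the 81 genes differed in the miR-224 change against scrambled (SPARC and ITGA2). Here larger and lower give the sign of the PC3 change minus the DU145 change, so a fall in DU145 alone also counts as larger in PC3. Of all genes 1.15% passed there, 0.909% larger and 0.245% lower in PC3. In the miR-224 change against untransfected cells 6 differed, 5 larger and 1 lower in PC3, with 5.13% of all genes passing (4.33% larger, 0.794% lower). In the miR-452 change against untransfected cells 7 differed, 4 larger and 3 lower in PC3, with 2.88% of all genes passing (2.20% larger, 0.680% lower). Among these 7, COL5A2, named after its values were seen, fell by 0.34 in PC3 and changed by 0.14 in DU145 (difference -0.48 ± 0.12, adjusted p = 0.0446). By mean level COL5A2 lay at percentile 26.7 of all genes in DU145 and 59.0 in PC3. Only the LAMA1 difference with miR-452 passed without any single array. The first count was 0 without PC3 scrambled array c or DU145 miR-224 array c, and 1 without PC3 miR-224 array b or DU145 miR-224 array a. The second was 0 without PC3 untransfected array c, 1 without PC3 miR-224 array b, DU145 miR-224 array c or either DU145 untransfected array, 2 without DU145 miR-224 array a, 10 without either DU145 miR-452 array, and 4 higher with 0 lower after quantile normalization in place of 5 and 1. The third was 2 without PC3 untransfected array b, PC3 miR-452 array b or DU145 untransfected array c, 3 without DU145 untransfected array b, 4 without PC3 miR-452 array c and 14 without DU145 miR-452 array c.

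Genes of matrix assembly and adhesion outside the families, from a list of 56 of which 54 were measured, were compared in the same fits. With miR-224 in PC3 12 of the 54 passed higher and 2 lower against scrambled, where 12.1% of all genes were higher and 4.65% lower, with a median change of 0.057 over the list and -0.013 over all genes. CCN2, a matricellular growth factor, rose by 1.08 ± 0.09 (adjusted p = 4.56e-05), and the basement membrane linkers NID1 and NID2 by 0.77 and 0.53. THBS1, thrombospondin, fell by 0.81 (adjusted p = 0.000226). The scrambled arrays were lower than the untransfected by 0.61 for CCN2, 0.67 for NID1 and 0.48 for NID2 on the log2 scale. Against untransfected cells 2 were higher and 1 lower (of all genes 2.84% and 6.85%), namely FBN1 (0.58), CCN2 (0.47) and THBS1 (-0.87). CCN2 and THBS1 thus passed against each control, and the NID1 change against untransfected cells was 0.10 (adjusted p = 0.568).

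With miR-452 in PC3 2 of the 54 were higher and 1 lower against scrambled (of all genes 2.89% and 2.33%): NID1 (0.73), FERMT1, an integrin activator (0.56), and HSPG2, perlecan (-0.49). The scrambled arrays themselves were lower than the untransfected by 0.67 for NID1 (adjusted p = 0.00306) and 0.47 for FERMT1 (adjusted p = 0.0103). Against untransfected cells the miR-452 changes of NID1 and FERMT1 were 0.06 and 0.09, neither passing. In that comparison 2 of the 54 were higher and 7 lower (of all genes 8.12% and 14.1%), with PLOD2, a collagen lysyl hydroxylase, at 0.55, VCAN at 0.71, HSPG2 at -0.65 and CCN2 at -0.45. In DU145 LOX, the collagen crosslinking oxidase, fell by 1.00 with miR-224 (adjusted p = 0.00504) and 0.61 with miR-452 (adjusted p = 0.0404) against scrambled, and THBS1 rose by 0.62 and 0.69 (adjusted p = 0.0220 and 0.0170). The scrambled array was higher than the untransfected arrays for LOX, by 0.45 (adjusted p = 0.0457), and the miR-452 change of LOX against untransfected cells was -0.16 (adjusted p = 0.239). No other gene of the list passed in the 2 comparisons with scrambled, where of all genes 0.631% passed upward and 1.31% downward for miR-224, and 0.577% and 1.52% for miR-452. Against untransfected DU145 cells 1 was higher and 2 lower with miR-224 (of all genes 5.44% and 15.5%), namely VTN (0.42), FERMT1 (-0.78) and LOX (-0.56). With miR-452 2 were higher and 12 lower (of all genes 8.31% and 19.9%), among them PARVA (-0.56), FERMT1 (-0.55), NID1 (-0.52) and PLOD1 (-0.48). The scrambled array was lower than the untransfected arrays by 0.53 for FERMT1 and 0.64 for NID1 there too. The THBS1 change with miR-224 against scrambled was downward in PC3 and upward in DU145, where the scrambled array itself lay lower than the untransfected arrays by 0.74 on the log2 scale and the change against untransfected cells was -0.12.

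The mean level of the 5 epithelial markers also moved with treatment. In PC3 it was 9.64 to 9.66 untransfected, 9.44 to 9.56 scrambled, 9.33 to 9.39 with miR-224 and 10.00 to 10.02 with miR-452. In DU145 it was 10.34 to 10.35 untransfected, 10.27 scrambled, 9.79 to 9.85 with miR-224 and 10.04 to 10.22 with miR-452. The part of this shift in the laminin and integrin changes was not tested.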

How the data were processed

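Total RNA of 15 samples was hybridised to whole-transcript arrays (Human Gene 1.0 ST, Affymetrix). The deposited values are log2 levels, summarised by RMA16 in GeneSpring GX 11.0 by the authors, each line normalized by itself, per the series' design text. The genome build is not given in the sources used here, so gene coordinates are not printed.

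Of 28869 features, 19310 carry 1 symbol, 1752 several and 7807 none in the platform annotation, and 19279 of the first matched RefSeq by Entrez number. Features were averaged per symbol to 18377 genes. A linear model with 4 treatment groups was fitted in each line with limma 3.58.1 (R 4.3.3) and empirical Bayes moderation. Residual degrees of freedom were 4 in PC3 and 3 in DU145. Differences between lines came from 1 fit of all 15 arrays, with 7. P-values were adjusted by Benjamini-Hochberg over all genes, and 0.05 was the threshold ("passed"). The ± values are standard errors of the fit. The script was tested on simulated data. The small number of arrays limits the precision.

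Genes named in the text were, per comparison within a line, up to 10 rises and 10 falls with the largest change that passed without overlap between the groups. SPARC and FN1 were added for every such comparison. Others were drawn from up to 6 members with the smallest p between lines and up to 4 pathway genes with the smallest p. Not all of those drawn on are named. The members, gene lists and rules were chosen with earlier results of these data known. Alternatives were a filter on low levels, features not averaged, quantile normalization of each line, trend and robust moderation, the replicate letter as a block, the other control group and leaving out each array.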

Additional observations from a re-analysis of the deposited data

Results flagged for a closer look

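The results here are changes that differed between the lines in a test of the difference itself (PC3 change minus DU145 change, limma over all 15 arrays, adjusted over 18377 genes). With miR-224 against scrambled these were SPARC at 1.1631 ± 0.2019 (adjusted p = 0.0151) and ITGA2 at 0.8853 ± 0.1678 (adjusted p = 0.0224).

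With miR-224 against untransfected cells, SPARC differed by 0.6781 ± 0.1806, ITGA2 by 0.8427 ± 0.1501, ITGB1 by 0.5151 ± 0.1132, LAMA1 by 0.516 ± 0.1115 and FN1 by 0.5079 ± 0.1162, all of positive sign. For LAMA1 and FN1 the DU145 falls passed and the PC3 changes did not. COL6A3 differed by -0.5751 ± 0.149. With miR-452 against untransfected cells, LAMA1 differed by 0.6925 ± 0.1115, LAMB3 by 0.7414 ± 0.1451, ITGB4 by 0.6781 ± 0.1279 and FN1 by 0.5486 ± 0.1162. SPARC differed by -0.8139 ± 0.1806, COL6A3 by -0.7953 ± 0.149 and COL5A2 by -0.4839 ± 0.1208. The last was named after its values were seen.

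The comparisons with untransfected cells share the untransfected arrays, and those with scrambled share a single DU145 scrambled array. Of the differences named by the rule, the LAMA1 difference with miR-452 was the only one that passed whichever single array was left out. By mean level LAMA1 in PC3 and SPARC, COL6A3 and COL5A2 in DU145 lay at percentile 20.1 to 26.7 of all genes. The part of this in the differences was not tested.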

How the results depend on the processing

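Against the other control group 27 of the named changes that passed turned sign, each now compared with the control in its setting. The cause was not tested. In PC3 with miR-224 LAMB1 was -0.0695 and ITGA8 0.0213 against untransfected cells, and with miR-452 COL3A1 was -0.0088 and CCN2 0.166 against scrambled. In DU145 THBS1 was -0.123 with miR-224 and -0.0546 with miR-452 against untransfected cells. Against scrambled in DU145 with miR-224 the values were -0.0217 for COL9A2, -0.0516 for COL22A1, -0.1499 for COL5A3, -0.081 for COL2A1, -0.0366 for COL4A3, -0.1384 for COL9A1, -0.0534 for COL27A1, 0.0729 for LAMB1, 0.0115 for ITGB4, 0.1995 for FN1, 0.0518 for ITGAV and 0.2852 for LAMB2. With miR-452 they were -0.0352 for COL2A1, -0.0014 for COL23A1, -0.0494 for COL9A1, -0.0035 for COL7A1, -0.0883 for COL9A2, 0.0362 for FN1, 0.1704 for LAMB2, 0.0142 for COL12A1 and 0.1206 for NID1. Of the named changes that passed, none turned sign under the other alternatives run. Among those that had not passed, the sign turned in 3 cases against the other control group. It also turned in 3 cases with an array left out and in 2 with the replicate letter as a block.

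Leaving out 1 array at a time, the count of the 81 genes passing ranged in PC3 from 4 to 13 (miR-224 against scrambled), 2 to 4 (miR-452 against scrambled), 5 to 8 and 4 to 24 (miR-224 and miR-452 against untransfected cells), 0 to 11 (scrambled against untransfected cells) and 9 to 12 (miR-224 against miR-452). In DU145 the same ranges were 0 to 4, 0 to 1, 2 to 37, 2 to 55, 0 to 32 and 2 to 6. Between lines they were 0 to 3 and 0 to 1 against scrambled, and 0 to 10 and 2 to 14 against untransfected cells, for miR-224 and miR-452.

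In DU145 the count of 1 with miR-224 against scrambled was 2 without low-level genes, 2 after quantile normalization and 2 with trend and robust moderation, and the count of 0 with miR-452 was 1 after quantile normalization and 1 with trend and robust moderation. Quantile normalization gave 14 for miR-452 and 2 for scrambled against untransfected DU145 cells, where 27 and 8 passed. Over all genes, quantile normalization changed the DU145 counts from 357 to 560, 386 to 714, 3850 to 2557, 5178 to 2253 and 2172 to 942 (miR-224 and miR-452 against scrambled, then miR-224, miR-452 and scrambled against untransfected cells), and the between-line count for miR-224 against scrambled from 212 to 329. Trend and robust moderation gave 690 and 924 for the first 2, and leaving out low-level genes 588 for the second.

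The labels do not say whether the replicate letters pair the arrays. Deviations of same-lettered arrays from their group means had correlations of -0.147 to 0.273 (PC3) and -0.31 to 0.051 (DU145). With 2 arrays a group the 2 deviations mirror each other, so few of these correlations are independent and they cannot decide this. With the letter as a replicate block the PC3 counts were 9, 5, 6, 20, 6 and 10 in the order above, and the DU145 counts 0, 0, 2, 1, 0 and 5. Between lines the block gave 0 genes of the 81 in each of the 4 tests, where 2, 0, 6 and 7 passed without it. Over all genes the block gave 1732, 831 and 1952 in PC3 for miR-224 against scrambled, untransfected cells and miR-452 (3080, 1780 and 3400 without it), and in DU145 17, 4, 463, 445 and 413 in the order given for quantile normalization. Between lines it gave 0, 0, 1 and 29 over all genes (212, 114, 942 and 529 without it). When the letters a and c of the miR-452 arrays were swapped in DU145, an alternative chosen after seeing the data, 7 genes differed between the mimics in DU145 in place of 5. With 2 arrays a group and a single DU145 scrambled array, small changes could not be told from the spread.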
